A study of Sus scrofa with 20 samples.

Results

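Porcine biliary tree stem cells (pBTSCs) of 2 pig lines were compared, 3 preparations from piglets of an H2B-GFP line and 2 from wild-type piglets, which together are 5 of the 20 RNA libraries of the series. The other 15 libraries are of pig liver cells sorted as CD45+, CD45-/EpCAM+, CD45-/EpCAM-, CD31+ or CD146+. They serve here chiefly as a scale for liver genes, and HIST1H2BB, interferon genes and some others are compared across them too. A liver median is taken over all these sorts, not over hepatocytes alone. The H2B-GFP piglets descend from a transgenic boar and a wild-type gilt. They carry porcine histone H2B joined to enhanced green fluorescent protein (eGFP), placed behind an internal ribosome entry site in the ACTB locus, so that the beta-actin promoter drives it in every cell type. The wild-type piglets carry no transgene. Piglets were 1 day old, apart from H2B-GFP piglet 3 at 2 days. Each library comes from 1 piglet, and the cells were released from gallbladder and extrahepatic ducts of untreated animals. The study defines biliary tree stem cells by the absence of CD45 and the presence of EpCAM. Its methods purify stem cell fractions for genetic work by immunoselection, which depletes mature blood and mesenchymal cells, and then hold them for some hours in low attachment dishes, where they form organoids with early mesenchymal cells. Which of these steps each of the 5 preparations passed through is not given in the sources used here. The deposited labels give all 5 as pBTSCs from gallbladder and do not give the line, which was taken from the study's list of preparations by storage number. The methods describe the transgenic donors as males, the study calls its wild-type pigs a cross of several breeds, and the sex of the 2 wild-type donors is not given in the sources used here.

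The extrahepatic biliary tree is a tube of mucus-producing epithelium with peribiliary glands in its wall, in which the stem cells of the biliary tree reside. Around the epithelium lie connective tissue, smooth muscle, blood vessels, resident macrophages and lymphocytes, and nerve bundles with their Schwann cells, and the gallbladder rests against the liver. Before any selection, a dissociated piece of this tissue holds many of these cell types. In bulk RNA, fewer cells of a type and less RNA per cell cannot be told apart.

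The library of wild-type piglet 1 was shallow, at an estimated 1570000 reads, while the other 4 held 29000000 to 77900000. A single read stood for 12.6 normalized counts in it and 3 reads for 37.7, against 0.680 to 1.92 for 3 reads in the others. A value under 3 reads was read as not told from 0, a floor that covers counting error only. Among the liver libraries, those with storage numbers S13 and S22 were shallower still, at an estimated 800000 and 454000 reads. The list of preparations also gives the wild-type suspensions fewer cells and more concentrated RNA than every H2B-GFP suspension. RNA integrity is given as higher for wild-type piglet 2 than for the 3 H2B-GFP preparations, and is not given for wild-type piglet 1. Line, cell number, RNA yield, RNA integrity and preparation cannot be told apart with 3 piglets against 2. Markers of the label were present in all 5 libraries, among them EPCAM, at 2075, 1145 and 1364 normalized counts in the H2B-GFP and 1047 and 884 in the wild-type piglets, and SOX9, at 812, 821 and 582 against 728 and 402.

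Between the lines, 264 of 14912 genes tested were called (limma, adjusted p under 0.05 and absolute log2 fold change above 1), 60 of them higher and 204 lower with the transgene. This is 1.77% of the genes tested, 0.402% higher and 1.37% lower. The 15 largest falls of named genes were, apart from the immunoglobulin component JCHAIN, of genes with high levels in the liver, and the largest rises included 1 histone H2B gene and genes of nerves, glia and epithelium. The median log2 fold change over all genes tested was 0.01. In all 264 called genes, every library of one line lay above every library of the other. Such a separation by itself is common here, as the H2B-GFP libraries lay above both wild-type libraries for 18.1% of the genes tested and below both for 19.8%. Of the called genes, 57 have no name in the table, 5 of the higher and 52 of the lower, and 9 of them fell by more than the largest fall of a named gene. With 3 libraries against 2, an exact rank test of a single gene cannot give a two-sided p under 0.2, so none was run.

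The calls lean on wild-type piglet 1. Without its library, 14621 genes were tested and 24 were called, 6 higher and 18 lower, and 23 of these were among the 264. Without wild-type piglet 2, 450 were called, 320 higher and 130 lower, and 92 of them were among the 264. In each of these 2 fits a single wild-type library stands for its line and is assumed to vary as the H2B-GFP libraries do. No called gene changed direction in a fit that left out 1 library, and 22 were called in all 5 such fits. Among those with a name are the plasma protein genes ALB, APOB, FGB, TTR, TF, F2, HPX, SERPINA5, SERPIND1, CPB2 and SPP2, the bile acid enzyme AKR1D1, the histone gene HIST1H2BB, the nucleoside transporter SLC28A3 and the opioid peptide gene PDYN. Each of the other called genes described here was not called, or was not tested, in at least 1 of these 5 fits. In each fit without a wild-type library, 200 of the 264 were tested.

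**Figure D1:**
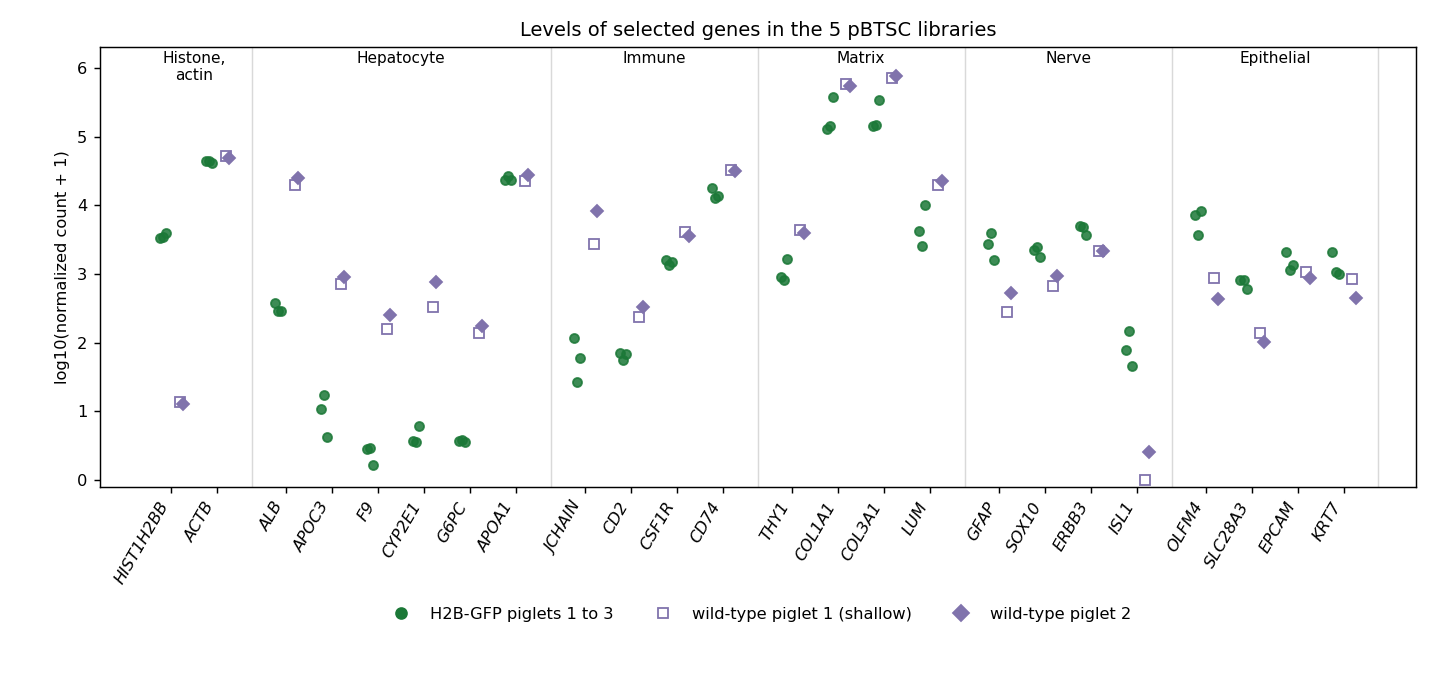
Levels of 24 genes in each pBTSC library, as log10(normalized count + 1), grouped by the cell type or role they are known for. Green points are H2B-GFP piglets 1 to 3, open squares wild-type piglet 1 and filled diamonds wild-type piglet 2. HIST1H2BB, GFAP and OLFM4 are higher in every H2B-GFP library, ALB, JCHAIN and CSF1R lower, and APOA1 overlaps. H2B-GFP piglet 3 lies nearest to the wild-type piglets for the collagens.

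A histone H2B gene separated the lines in every library. HIST1H2BB, a gene of core histone H2B, held 3306, 3388 and 3927 normalized counts in the H2B-GFP piglets and 12.6 and 11.6 in the wild-type piglets. The wild-type values rest on 1 read and on 24 reads. Taking each wild-type level as its whole reads times the value of 1 read, the H2B-GFP mean was 307 times the level of wild-type piglet 2, with a 95% counting interval of 206 to 479, and 282 times the single read of wild-type piglet 1, with an interval of 50.5 to 11121. It had the largest rise of all genes tested, 8.08 as a log2 fold change with a standard error of 0.16 (adjusted p = 1.47e-05). Without wild-type piglet 1 the fold change was 8.13 (adjusted p = 0.000922). The inserted H2B is porcine, and the table does not tell endogenous from inserted H2B transcripts. The eGFP sequence is no pig gene and was not analysed here.

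No other H2B gene was called. Of 8 rows with an H2B name, 5 were tested. HIST1H2BD, for one, stood at 214, 161 and 259.7 against 365 and 331 (log2 fold change -0.74, adjusted p = 0.192), and HIST2H2BE at 168, 255 and 163 against 139 and 207. ACTB, whose locus carries the insert, stood at 44600.5, 44552 and 41488 normalized counts in the H2B-GFP and at 51563 and 48919 in the wild-type piglets. All 3 H2B-GFP values were the lower ones, with a log2 fold change of -0.21 that did not pass the test (adjusted p = 0.514). The other actins did not pass either, among them ACTG1, the other cytoplasmic actin (log2 fold change 0.60, adjusted p = 0.190), and the smooth muscle actin ACTA2, at 57757, 89762 and 61974 against 34759.8 and 31389.6. In the liver, HIST1H2BB ranged from 1637 to 5034 in the 8 libraries with storage numbers S3 to S14 and from 0 to 43.1 in the 7 with numbers S16 to S23. The 0 is of the shallow library S22, where 3 reads stand for 157 normalized counts. The sources used here do not state the line or donor of a liver library.

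The hepatocyte lists held 32 of the 204 genes called lower in the H2B-GFP piglets, the most of any cell type looked at. Of 30 tested genes of hepatocyte plasma proteins, 20 fell, none rose and 10 did not pass the test, with a median log2 fold change of -3.38. Of 23 tested genes of hepatocyte enzymes and transporters, 12 fell, none rose and 11 did not pass, with a median of -2.84. Over all genes tested, 1.37% were called lower. The filter of 10 normalized counts in 2 libraries was met by 14 of these 53 genes only through the wild-type libraries, and 12 of the 14 were called. Of those 14, 11 were enzymes and transporters, 9 of them called, and 3 were plasma proteins, all called. Among the other 39, which reached 10 in an H2B-GFP library too, 20 were called lower. Without wild-type piglet 1, 7 of 27 tested plasma protein genes and 1 of 12 tested enzymes and transporters were called lower, with medians of -3.31 and -1.57, and the genes no longer tested reach 10 counts in at most 1 of the 4 libraries left.

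Albumin, the main protein of blood plasma, shows the size of the difference. ALB stood at 376, 287 and 288 normalized counts in the H2B-GFP and 19832 and 25087 in the wild-type piglets, a ratio of the means of 70.8 (log2 fold change -6.14, standard error 0.17, adjusted p = 8.25e-05). Both wild-type libraries lay far above all H2B-GFP libraries, and all 5 lay far below the liver libraries, which ranged from 513084 to 1789960. APOC3, a lipoprotein component that slows the clearance of triglycerides, was at 9.94, 15.9 and 3.24 against 712 and 899 (log2 fold change -6.44, adjusted p = 0.00945). Clotting factor IX, F9, was at 1.80, 1.87 and 0.631 against 156 and 249.7, where the value of H2B-GFP piglet 3 is under its floor. Antithrombin, SERPINC1, was at 6.80, 8.01 and 8.29 against 339 and 739. The heme scavenger hemopexin, HPX, was at 11.8, 16.5 and 8.29 against 478 and 1020.1. In each of these genes wild-type piglet 2 held the higher wild-type value.

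Enzymes of the mature hepatocyte fell as well. CYP2E1, which oxidizes ethanol and small solvents, was at 2.72, 2.58 and 5.09 normalized counts in the H2B-GFP piglets and at 327 and 766 without the transgene (log2 fold change -6.86, standard error 0.54, adjusted p = 0.00558). G6PC, the enzyme that releases free glucose, was at 2.72, 2.84 and 2.54 against 138 and 173. OTC of the urea cycle was at 1.36, 1.29 and 0.636 against 87.9 and 75.7, with the higher value in wild-type piglet 1. For these genes the H2B-GFP values are those of a few reads, and each met the filter only through the wild-type libraries. The bile salt export pump, ABCB11, was at 0, 1.11 and 1.37 against 53.5 and 81.6, under the floor in H2B-GFP piglets 1 and 3. A smaller fall was found for AQP9, a glycerol channel (log2 fold change -1.48, adjusted p = 0.0355).

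Set against the liver, the wild-type levels of most called hepatocyte genes lay in a narrow band. Over the 53 tested genes of both lists, the median level in wild-type piglets 1 and 2 was 1.80% and 3.25% of the median of the 15 liver libraries, and the H2B-GFP mean 0.260%. Among the 32 called genes, 29 had a wild-type mean between 1% and 5% of the liver median, and wild-type piglet 2 was above wild-type piglet 1 in 30. For ALB the H2B-GFP and wild-type means were 0.0235% and 1.67% of the liver median, for APOB, the core protein of very-low-density lipoprotein, 0.104% and 1.74%, and for the iron carrier TF 0.347% and 2.52%. The 3 called genes outside that band were CYP2E1, at 0.0506% and 7.98%, the plasma kinin precursor KNG1 and the drug-metabolizing enzyme CYP3A29. Since the 32 genes were called for their difference, these shares are a description of them.

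**Figure D2:**
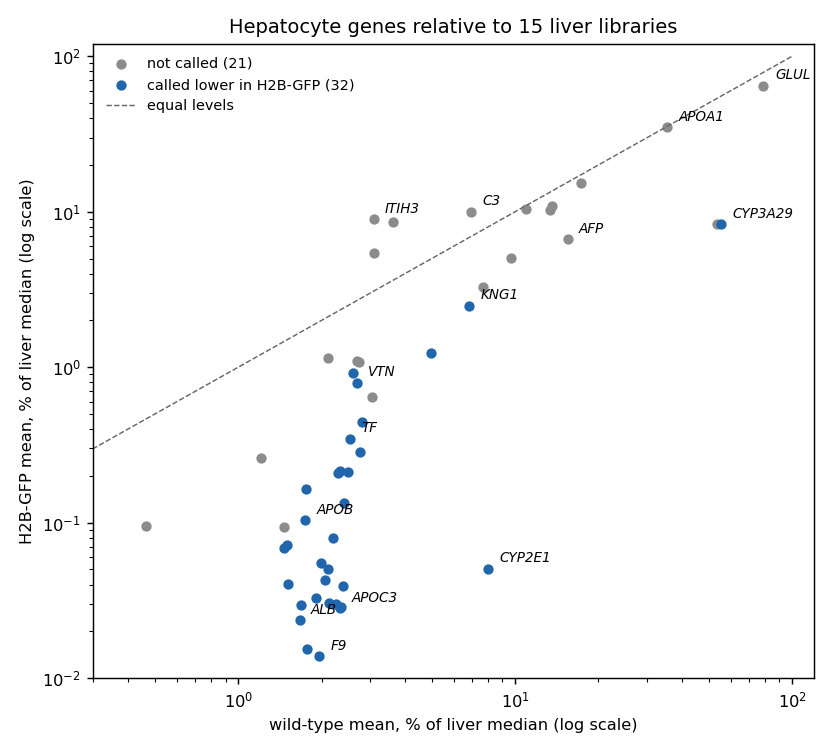
Mean level in H2B-GFP piglets (y axis) against mean level in wild-type piglets (x axis) for the 53 tested hepatocyte genes of plasma proteins, enzymes and transporters, each as a percentage of the median of 15 liver libraries, on log scales. Blue points are the 32 genes called lower in H2B-GFP piglets, grey points the 21 not called, and the dashed line marks equal levels. Most blue points stand in a column between 1% and 5% of the liver on the wild-type axis and spread from 0.0138% to 8.28% on the H2B-GFP axis.

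Not all hepatocyte genes were lower. APOA1, the main protein of high-density lipoprotein, overlapped, at 23518, 27035 and 23582 normalized counts against 22643 and 27517 (log2 fold change -0.02, adjusted p = 0.963), and at 34.8% and 35.4% of the liver median. Complement C3 was at 18643, 20679 and 20485 against 11126 and 16517 (adjusted p = 0.213). C9, which forms the membrane pore of complement, and ITIH3, a binder of hyaluronan, also had all 3 H2B-GFP values above both wild-type values, with log2 fold changes of 1.20 and 1.44 that did not pass the test (adjusted p = 0.125 and 0.175). Alpha-fetoprotein, AFP, the fetal counterpart of albumin, varied within the H2B-GFP line from 1048 to 8066 and overlapped the wild-type values of 12087 and 8054. Among the enzymes, glutamine synthetase GLUL stood at 5869, 7682 and 6931 against 9035 and 7644.

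No hepatocyte transcription factor was called lower. Of 13 tested, FOXA1, a pioneer factor of endoderm, rose, at 306, 220.0 and 217 against 100.5 and 83.4 normalized counts (log2 fold change 1.41, standard error 0.24, adjusted p = 0.0481), and the other 12 did not pass. FOXA1 lost the call without any one of the 5 libraries, with adjusted p between 0.0859 and 0.169. HNF4A, which governs hepatocyte and gut epithelial genes, overlapped, at 1366, 761 and 857 against 929 and 486. The median of the list was 0.20, and 0.402% of all genes tested were called higher.

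The 15 largest falls of named genes were, apart from JCHAIN, of genes with high levels in the liver libraries. They were SERPINA3-2, CYP2E1, APOC3, F9, JCHAIN, APOC2, ALB, CCL16, ACSM4, APOA2, SERPINC1, HPX, MBL1, G6PC and C8B, with log2 fold changes from -6.91 to -5.39. SERPINA3-2, an acute-phase protease inhibitor, stood at 7.71, 3.88 and 0 normalized counts in the H2B-GFP and 252 and 693 in the wild-type piglets, and at 7523 to 44651 in the liver. CCL16, a chemokine made by the liver, stood at 2.49, 1.55 and 0.638 against 126 and 216, and at 3214 to 10647 in the liver. C8B, a part of the complement pore, stood at 3.96, 2.78 and 3.43 against 135 and 246, and at 2606 to 16902 in the liver. FABP1, a fatty acid carrier of liver and intestine, was the one called gene among 7 tested pancreas, stomach and intestine genes (median log2 fold change 0.28), at 1.59, 2.33 and 1.28 against 113 and 95.0 (log2 fold change -5.28, adjusted p = 0.0152), with 3330.1 to 9828 in the liver. SERPINA3-2, CCL16, C8B and FABP1 met the filter of 10 normalized counts only through the wild-type libraries, as did CYP2E1, F9 and G6PC. The 204 genes called lower are 1.37% of those tested. Of them, 85 (41.7%) had a liver median more than 10 times the wild-type mean, as did 2.31% of all genes tested. A liver median below the means of both lines was found for 62 of the 204 (30.4%), and for 49.3% of all genes tested. Both shares describe genes called for their difference, and 44 of the 204 had at least 1 H2B-GFP library at or under 3 reads. Not every gene that is high in the liver fell. FCN2, a ficolin picked after its values were seen, rose, at 3043, 3064 and 2724 against 786 and 1053 (log2 fold change 1.69, adjusted p = 0.00926), with 4345 to 22634 in the liver. None of 17 tested endothelial markers was called, with a median of -0.08. Of these, 8 had a positive and 9 a negative fold change. The sinusoid markers CLEC4G and STAB2, which do not stand for the list, had their highest value in wild-type piglet 2. CLEC4G stood at 7.45, 29.7 and 31.2 against 37.7 and 329.5, and STAB2 at 40.6, 77.1 and 153 against 138 and 987. Neither passed the test. In wild-type piglet 1, CLEC4G was at the floor of 3 reads and STAB2 lay below H2B-GFP piglet 3. Over the whole list of plasma proteins, 23 of 30 tested genes had every H2B-GFP value below both wild-type values, as did 19.8% of all genes tested. The list took up 0.307% to 0.353% of the normalized total in the H2B-GFP piglets, 0.479% and 0.648% in wild-type piglets 1 and 2 and 7.65% to 18.3% in the liver. The part of admixed liver cells in these differences was not tested.

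JCHAIN was the exception among the largest falls. This gene encodes the joining chain of IgA and IgM and is made by plasma cells. It stood at 116, 25.5 and 59.3 normalized counts against 2715 and 8213 (log2 fold change -6.37, standard error 0.69, adjusted p = 0.0147). The highest liver value was 131, in S22, which is under the floor of that shallow library, 157. The next highest was 102, in S23. Without wild-type piglet 1 its log2 fold change was -7.17 with an adjusted p of 0.0948.

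Some lymphocyte and macrophage genes were lower in the H2B-GFP piglets. PTPRC, the gene of CD45, was detected in all 5 libraries, at 971, 534 and 777 against 1455 and 2139.5 normalized counts (log2 fold change -1.25, adjusted p = 0.0987). The part of CD45+ cells in these differences was not tested. Of 17 tested T and B lymphocyte markers, 3 fell, none rose and 14 did not pass, and the median log2 fold change was -1.32. The share called lower over all genes tested was 1.37%. None was called without wild-type piglet 1, where the median was -1.99. Besides JCHAIN the 3 were CD2, an adhesion receptor of T cells, at 70.1, 53.8 and 66.0 against 238 and 324, and the interleukin-7 receptor IL7R, at 48.8, 28.9 and 47.1 against 163 and 158 (adjusted p = 0.0207 and 0.0458). CD3E of the T cell receptor complex was at 54.8, 33.9 and 56.8 against 63.0 and 197, where the H2B-GFP values were also the lower ones but did not pass (adjusted p = 0.289). CD79A of the B cell receptor was at 333, 396 and 275 against 402 and 435.

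Of 16 tested myeloid markers, 2 fell, none rose and 14 did not pass, with a median of -0.52, and none was called without wild-type piglet 1. The share called lower over all genes tested was 1.37%. CSF1R, the receptor that maintains macrophages, stood at 1599, 1326 and 1502 against 4043 and 3546 normalized counts (log2 fold change -1.36, standard error 0.13, adjusted p = 0.00945). KIT, a receptor of mast cells and of the pacemaker cells of gut muscle, stood at 390.0, 414 and 463 against 859.8 and 1030.3 (log2 fold change -1.16, adjusted p = 0.0249). The scavenger receptor CD163 overlapped, at 1491, 2398 and 958 against 1639 and 1907. Neutrophil genes had no common order, as S100A9 ranged from 309 to 2629.8 in the H2B-GFP piglets and from 25.6 to 411 in the wild-type piglets. The 3 chains of complement C1q, which tissue macrophages secrete, were picked after their values were seen. C1QA fell by 1.83, C1QB by 1.73 and C1QC by 1.62 on the log2 scale (adjusted p = 0.0154, 0.0123 and 0.0278). C1QA, for one, stood at 1017, 635 and 734 against 2639 and 2918.

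Antigen presentation genes had one order throughout. All 12 tested had every H2B-GFP value below both wild-type values, a pattern found in 19.8% of all genes tested, and their median log2 fold change was -1.08. The 2 that passed the test, where 1.37% of all genes tested were called lower, belong to the class II pathway. CD74, the invariant chain, fell by 1.12 (18088, 12769 and 13532 against 32213 and 31274 normalized counts, adjusted p = 0.0425), and SLA-DMB, which loads peptides, fell by 1.08 (774, 601 and 598 against 1319.8 and 1439.6, adjusted p = 0.0318). Both calls were lost without any one library other than H2B-GFP piglet 1, and with the libraries scaled to equal totals (adjusted p = 0.0696 and 0.0541). B2M, the light chain of class I, stood at 19546, 11387 and 13075 against 44547 and 32045 (log2 fold change -1.40, adjusted p = 0.0638).

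Interferon response genes differed between the wild-type piglets themselves. Of 23 tested, none was called, although 22 had every H2B-GFP value below both wild-type values, as did 19.8% of all genes tested. The median log2 fold change of the 23 was -2.11. RSAD2, an antiviral enzyme, stood at 177, 90.3 and 58.5 normalized counts with the transgene, and in wild-type piglets 1 and 2 at 6827 and 622 (log2 fold change -4.38, standard error 0.97, adjusted p = 0.0950). MX1, a GTPase against viral nucleoproteins, stood at 569, 261 and 238 against 8582 and 1125, and IFI6 at 562, 352 and 533 against 12508 and 1563. Wild-type piglet 1 was above wild-type piglet 2 for all 23 genes, by a median of 2.12 on the log2 scale. The lead of wild-type piglet 2 over the highest H2B-GFP piglet had a median of 0.58. IRF1, a factor that cytokines also induce through other routes, was the gene that overlapped, at 4489, 5789 and 3076 against 4396 and 3134.

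Which wild-type piglet was kept decided these calls. Without wild-type piglet 2, 21 of the 23 genes were called lower with a median of -3.17, and without wild-type piglet 1 none was called and the median was -1.05. The liver libraries near in storage number carried like levels. Summed over the 23 genes, wild-type piglet 1, S15, held 118515 normalized counts, and the liver libraries S16 to S19 held 118756 to 122180. Wild-type piglet 2, S20, held 30343, and the liver libraries S21 to S23 held 40183 to 41624. The 3 H2B-GFP libraries held 16097 to 21169, and the liver libraries between S3 and S14 held 14835 to 27645. The sources used here do not say what the storage number follows, and its part in these levels was not tested.

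**Figure D3:**
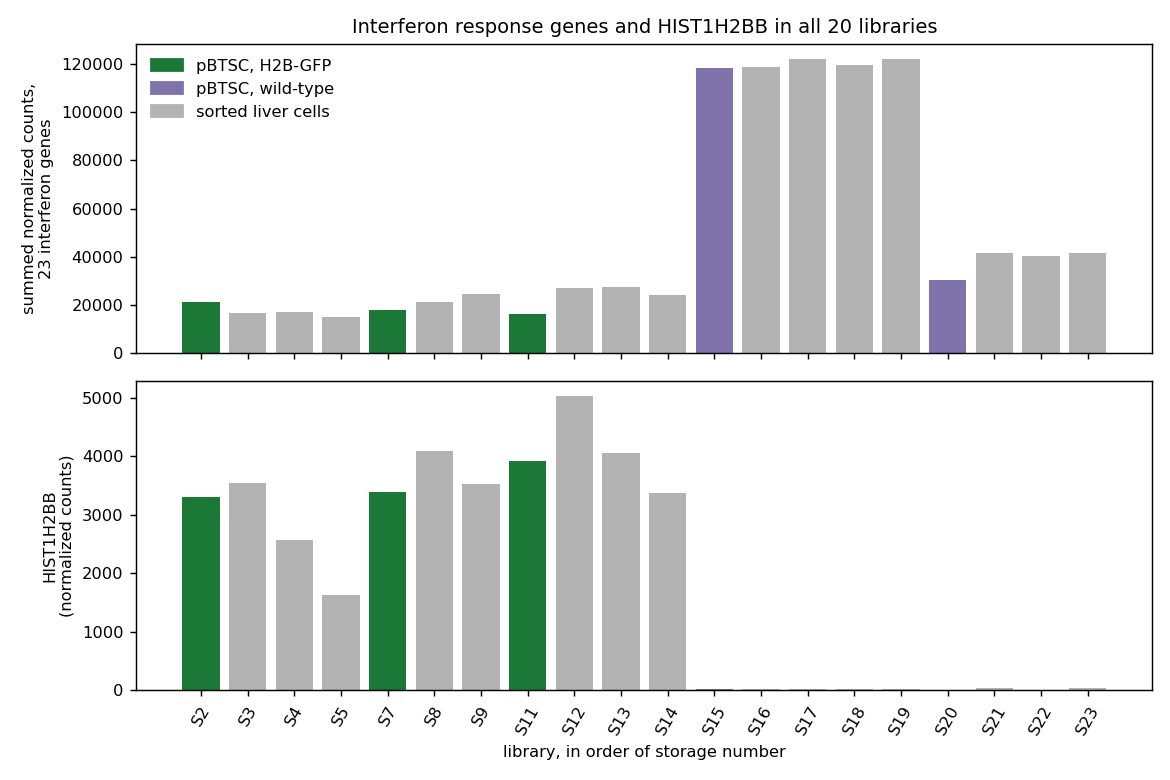
Summed normalized counts of 23 interferon response genes (top) and normalized counts of HIST1H2BB (bottom) in all 20 libraries in order of storage number. Green bars are H2B-GFP pBTSCs, purple bars wild-type pBTSCs and grey bars sorted liver cells. The interferon genes are high in S15 to S19 and next highest in the libraries from S21 on, and HIST1H2BB is high from S2 to S14 and near 0 from S15 on.

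Connective tissue genes formed a gradient in which H2B-GFP piglet 3 stood between the other H2B-GFP piglets and the wild-type piglets. Of 22 tested fibroblast and matrix genes, THY1 fell, none rose and 21 did not pass, with a median log2 fold change of -1.13. The share called lower over all genes tested was 1.37%. THY1, a surface marker of fibroblasts, stood at 897, 804 and 1640.5 against 4399 and 3979 normalized counts (log2 fold change -1.98, standard error 0.30, adjusted p = 0.0345). COL1A1, a chain of type I collagen, stood at 129440, 141140 and 381293 against 581225 and 543321 (log2 fold change -1.56, standard error 0.52, adjusted p = 0.203). COL3A1, type III collagen, stood at 144378, 146547 and 337875 against 712328 and 762054 (adjusted p = 0.113), and the proteoglycan LUM at 4227, 2514 and 10049.5 against 19666 and 22905. Together the 22 genes took up 3.42%, 3.54% and 7.21% of the normalized total in H2B-GFP piglets 1, 2 and 3 and 10.8% and 10.9% in wild-type piglets 1 and 2. Without H2B-GFP piglet 3, the one of 2 days, 9 of the 22 were called lower. DPT, a matrix protein that binds decorin and was picked after its values were seen, fell by 2.91 (1173, 884 and 2568 against 9244 and 11749, adjusted p = 0.0318). PDGFRB, a receptor of pericytes and fibroblasts, went the other way without passing the test, at 10076, 12097 and 7659 against 5785 and 6853, and vimentin, VIM, overlapped.

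Genes of Schwann cells and nerves were higher in the H2B-GFP piglets. Of 15 tested, 4 rose, none fell and 11 did not pass, and all 15 fold changes were positive with a median of 1.03. Over all genes tested, 0.402% were called higher. Among them, GFAP, a filament protein of glia, stood at 2707, 3965 and 1611 against 275 and 524 normalized counts (log2 fold change 2.76, standard error 0.42, adjusted p = 0.0345). SOX10, the factor that specifies Schwann cells, stood at 2241, 2503 and 1751 against 672 and 933, and ERBB3, their receptor for neuregulin, at 5028, 4794 and 3626 against 2176 and 2180.1 (log2 fold changes 1.43 and 1.03, adjusted p = 0.0312 and 0.0376). All H2B-GFP values of these genes lay above both wild-type values. Without wild-type piglet 1, 1 member of the list was called higher and none of these 3.

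Myelin basic protein, MBP, which was picked after its values were seen, rose by 1.90 (2670.0, 2222 and 2167 against 619.9 and 636, adjusted p = 0.00547). Neuron genes were less clear. STMN2, which regulates axon growth, was at 458, 328 and 424 against 197 and 129 (adjusted p = 0.0638). The neuropeptide gene VIP ranged from 191 to 1167 in the H2B-GFP piglets against 87.9 and 74.8 (adjusted p = 0.151). RET, a receptor of enteric neurons, overlapped. The list took up 0.128%, 0.108% and 0.0872% of the normalized total in the H2B-GFP piglets, 0.0310% and 0.0363% in the wild-type piglets and at most 0.0220% in a liver library.

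The 15 largest rises of named genes included HIST1H2BB, UNC80, ISL1, SLC5A8, SLC13A2, OLFM4, VAT1L, DEFB115, GFAP, PDYN, SLC28A3, STMN3, MLIP and RNF112, with log2 fold changes from 8.08 to 2.45. In 4 of them wild-type piglet 1 is listed at 0, where its floor is 37.7 normalized counts, so that their fitted fold changes and ranks depend on the pseudocount. With a pseudocount of 3 reads of that library, ISL1 had a log2 fold change of 1.65 (adjusted p = 0.0668) and SLC13A2 of 1.03 (adjusted p = 0.0672), and both lost the call. UNC80, a part of the sodium leak channel of neurons, stood at 262, 75.7 and 140.1 in its H2B-GFP libraries, and wild-type piglet 2 held 11 reads. Its H2B-GFP mean was 30.2 times those 11 reads, with a 95% counting interval of 16.9 to 60.4, and 4.22 times the floor of wild-type piglet 1. ISL1, a factor of endocrine and sensory cells, stood at 78.2, 146 and 44.1 against 3 reads in wild-type piglet 2, a ratio of 62.1 with an interval of 21.2 to 301, and its mean was 2.37 times the floor of wild-type piglet 1. SLC5A8, a carrier of short-chain fatty acids, stood at 91.0, 63.0 and 56.5 against 5.27 in wild-type piglet 2, with a mean 1.86 times the floor of wild-type piglet 1. SLC13A2, a carrier of citrate, stood at 41.3, 59.2 and 26.1 against 1.44. The mean of SLC13A2, 42.2, was 1.12 times the floor of wild-type piglet 1, so that this gene rests on wild-type piglet 2, which held 3 reads. The 95% counting interval for 0 reads in wild-type piglet 1 reached 46.4 normalized counts, above that mean. For RNF112, STMN3 and DEFB115 the value of wild-type piglet 1 is 1 read, and for VAT1L and MLIP 2 reads.

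OLFM4, which marks stem cells at the base of intestinal crypts and other gland epithelia, stood at 7201, 3674 and 8254 normalized counts in the H2B-GFP and 880.4 and 434 in the wild-type piglets (log2 fold change 3.28, standard error 0.42, adjusted p = 0.0233), and at 10.2 or less in the liver. SLC28A3, a nucleoside carrier, stood at 814, 813 and 595 against 138 and 103 (log2 fold change 2.61, standard error 0.22, adjusted p = 0.00689). PDYN, the precursor of dynorphin, stood at 487, 397 and 412 against 87.9 and 53.7 (log2 fold change 2.63, adjusted p = 0.0103). CHGA, a granule protein of endocrine cells that was picked after its values were seen, stood at 1025, 702 and 856 against 214 and 134 (log2 fold change 2.33, adjusted p = 0.0147).

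OLFM4 was the one called gene among 12 tested mucous and secretory gland genes, whose median was 0.55. The share called higher over all genes tested was 0.402%. The mucins overlapped, with MUC5B at 18979.5, 4355 and 7445 against 12615 and 4974 and MUC5AC at 6209, 1699 and 7157 against 6266 and 2099. In both lines the mucins varied several-fold between piglets, and wild-type piglet 1 held more than wild-type piglet 2. TFF3, a mucus-associated peptide, was at 221, 52.2 and 137 against 37.7 and 28.8 (adjusted p = 0.202).

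None of the 25 tested biliary and stem cell markers was called, and their median log2 fold change was 0.32. LGR5, a Wnt-related receptor of stem cells, stood at 684, 435 and 414 against 291 and 346 (adjusted p = 0.248). The biliary keratin KRT7 stood at 2081, 1065 and 984 against 855 and 440.2 (adjusted p = 0.235). PDX1, a factor of pancreas and bile duct, stood at 147, 105 and 109 against 126 and 71.9, and the endoderm factor SOX17 at 1170.0, 1055 and 856 against 1131 and 1168. The list took up 0.291% of the normalized total in H2B-GFP piglet 1, against 0.154% to 0.192% in the other 4 libraries.

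Immediate early genes are switched on within minutes of dissociation or other stimuli. Of 21 tested, the AP-1 component FOSB rose (18471, 17395 and 17423 against 7911 and 8742 normalized counts, log2 fold change 1.09, standard error 0.12, adjusted p = 0.0152) and 20 did not pass. Their median was 0.40, and 10 had every H2B-GFP value above both wild-type values. Over all genes tested, 18.1% had that order and 0.402% were called higher. FOS stood at 117126, 113221 and 112533 against 68419 and 85317 (adjusted p = 0.231). EGR2 had the reverse order, at 3063, 2462 and 2595 against 3894 and 3573 (adjusted p = 0.152).

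No member was called of the lists of cholangiocyte transport genes (12 tested, median log2 fold change -0.04), endothelial markers (17, -0.08), smooth muscle genes (14, 0.29), mesothelial markers (2, -0.62), erythroid markers (13, 0.83), cell cycle genes (25, -0.10), heat shock and stress genes (23, 0.11), cytokine and inflammation genes (17, 0.07), hypoxia and glycolysis genes (18, 0.15), genes of the IGF axis and oncofetal genes (15, 0.16), ribosomal protein genes (53, 0.16) or sex-linked genes (5, 0.17). Without wild-type piglet 1, no member was called of the antigen presentation, fibroblast and matrix, mucous and secretory gland, immediate early or hepatocyte transcription factor lists either. At an unadjusted p under 0.05, 2759 of the 14912 genes passed, so that a missing call is no evidence of equal levels. Erythroid genes did not follow the line. HBB, the beta chain of hemoglobin, stood at 28770.1, 92977 and 76431 against 28318 and 125452, with the lowest and the highest value both in wild-type piglets. All 13 tested erythroid markers overlapped between the lines. PECAM1, a marker of all endothelium, stood at 28048, 36576 and 28776 against 30691 and 34614.

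**Figure D4:**
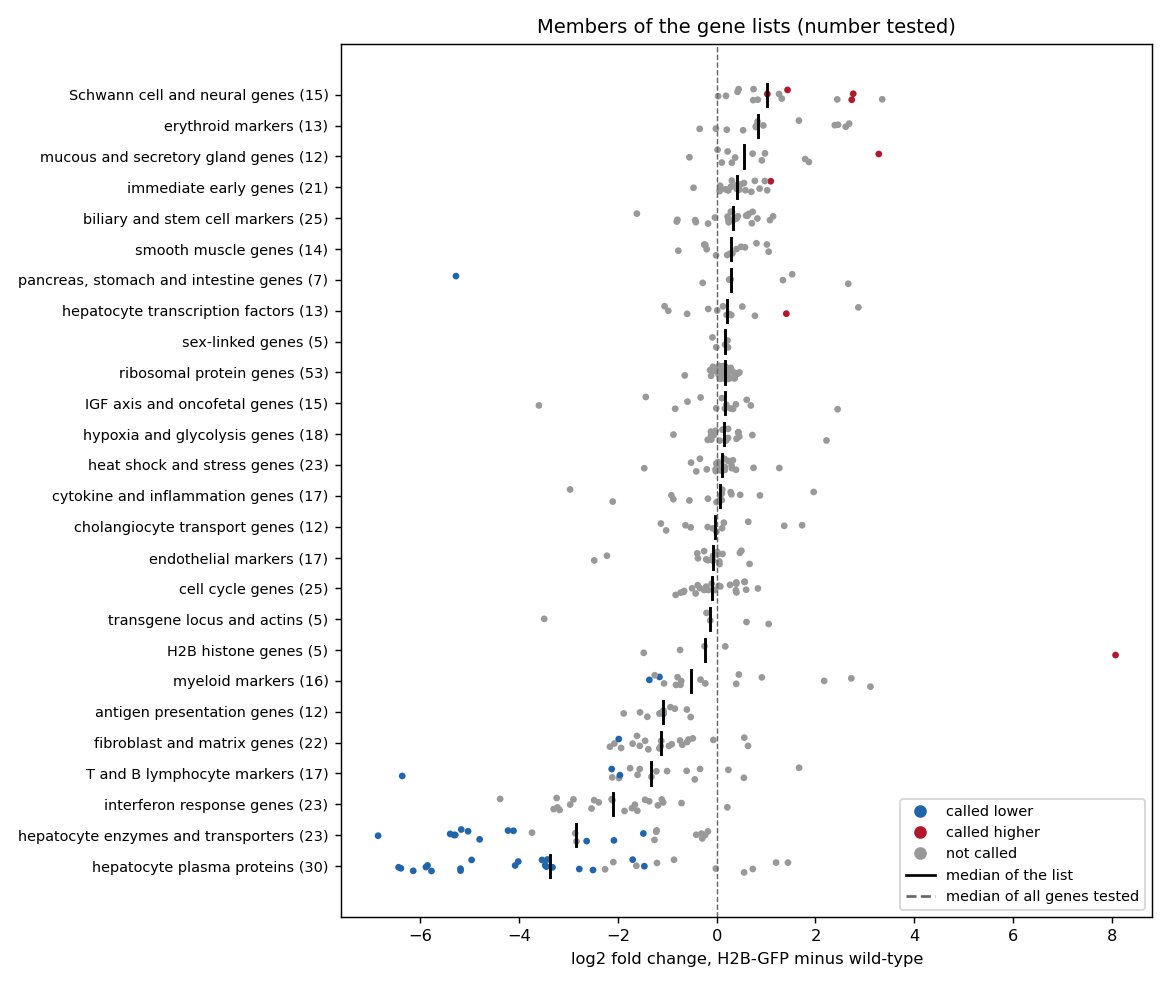
Log2 fold change, H2B-GFP minus wild-type, of the tested members of each gene list with 5 or more members tested, ordered by the list's median. Each point is 1 gene, blue where called lower, red where called higher and grey where not called, black bars are the list medians, and the dashed line is the median of all genes tested, 0.01. Both hepatocyte lists stand lowest, at -3.38 and -2.84, interferon response genes next at -2.11 without a call, and Schwann cell and neural genes highest at 1.03.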

How the data were processed

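Gene levels were taken from 1 table that the authors deposited, which gives a signal, the normalized count, for 25764 genes in 20 poly(A) RNA libraries. Per the labels, the processing notes name STAR, Salmon and DESeq2 without versions or roles. The genome build and annotation are not given in the sources used here, so no coordinates or sequences are shown. The depth of each library was estimated by dividing its total by the value of 1 read, the step between its lowest values, and ranged from 1570000 to 77900000 reads over the 5 pBTSC libraries, so that low genes are least precise in wild-type piglet 1.

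From these values, log2(normalized count + 1) of the 5 pBTSC libraries alone was compared in R 4.3.3 by a linear model with empirical Bayes moderation and a mean trend (limma 3.58.1). A gene was tested when 2 or more of the 5 libraries reached 10 normalized counts, which 14912 did. P-values were adjusted by the Benjamini-Hochberg method over all genes tested. Fold changes are H2B-GFP minus wild-type and understate the change of low genes, except against a library at 0 reads, where the fitted value depends on the pseudocount and is no bound. The step was tested on simulated data. Tables and figures were made with pandas 2.3.3 and matplotlib 3.10.9 in Python 3.11.15. At most 11 of the genes tested held equal values in any pair of the 5 libraries. Each library is 1 piglet and 1 preparation, so p-values measure the spread between these piglets and their preparation.

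The line, the gene lists and the comparison were chosen with earlier results of these data known. Named genes are list members, of which those called or defining are given, and, for each direction, the 15 called genes with a name and the largest fold change whose lines do not overlap and whose higher line lies above 3 reads in every library. Genes outside these rules are marked as picked after their values were seen. Of the symbols looked up, 79 had no row, and 510 genes had one, of which 457 were tested and 49 called. A few genes within these rules are not reported here. No row was found by name for mitochondrially encoded genes or for 11 of the 16 sex-linked genes looked up. Alternatives were other pseudocounts, filters, scalings, weights and fits, and each library left out in turn.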

Additional observations from a re-analysis of the deposited data

Results flagged for a closer look

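The share of the normalized total held by each of 28 gene lists was screened for a single library far from the other 4 pBTSC libraries, by the gap to the nearest library over the range of all 5. The list of mitochondrially encoded genes, 1 of the 28, had no row and could not be flagged. A screen of this kind picks out about 1 in 20 groups by chance. The interferon response genes took up 0.603% of the total in wild-type piglet 1, against 0.0867% to 0.156% in the other 4, a gap of 0.866 of the range. Biliary and stem cell markers took up 0.291% in H2B-GFP piglet 1, against 0.154% to 0.192% in the other 4, a gap of 0.723 of the range. Both pass Dixon's limit for 5 values. Their part in the differences between the lines was not tested.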

How the results depend on the processing

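Of 264 calls, 60 higher and 204 lower, no gene changed direction under any alternative in which it was tested. Leaving out 1 library moved the total from 24 to 450, the higher calls from 6 to 320, the lower calls from 18 to 154 and the called list members, 49 in all, from 10 to 46. The lowest totals came without wild-type piglet 1, where 200 of the 264 genes were still tested, and the highest without wild-type piglet 2. With a pseudocount of 0.1 the lower calls were 133. Over genes with a mean of at least 100 normalized counts there were 171 calls, 124 of them lower. The higher calls were 38 in the fit of all 20 libraries and 34 in the fit without a trend, which called 29 list members. Scaling to equal totals moved the median of all genes to 0.11 on the log2 scale and gave 236 calls. The causes were not tested. No paired analysis was possible because the labels give the piglets of both lines no shared numbers. Depth limits wild-type piglet 1, where 12 of the genes called higher lie at or under 3 reads. Of the genes called lower, 44 had at least 1 H2B-GFP library at or under 3 reads.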
